A study of Mus musculus with 5 samples.

Results

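The CC chemokine cluster of mouse chromosome 11 holds Ccl5, Ccl9, Ccl6, Ccl3 and Ccl4 and, between Ccl6 and Ccl3, the intronless gene Rpl9-ps1. These 6 genes were selected by symbol, out of 21755 protein-coding genes annotated in GENCODE vM21, together with the 200 kb around them on GRCm38, whose first and last CpGs are at chr11:83500030 and chr11:83699987. That stretch holds 1478 of the 21353092 CpG dyads (a CpG read on both strands) of the autosomes and the X chromosome. Rpl9-ps1 entered because its start gained far more methylation than most promoters when Tet2-/- was compared with Tet2+/+, and the chemokine genes entered as its neighbours. The members were thus chosen by the same comparison that is described here, and their differences are given as values. Where a test across all promoters or windows takes them in, only the count of those that passed is given, beside the share of all, and nothing is read from it.

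Whole genome bisulfite sequencing was done on acute myeloid leukemia (AML) blasts from bone marrow of mice on a C57BL/6 background. There were 2 libraries of genotype Cebpa-/p30 Tet2+/+ (replicates 23 and 24) and 3 of genotype Cebpa-/p30 Tet2-/- (replicates 5, 7 and 8). All 5 lacked the wild-type Cebpa allele and kept an allele that makes only the shorter p30 isoform of this myeloid transcription factor. By design the groups differed in TET2, the dioxygenase that oxidizes 5-methylcytosine on the way to demethylation. The paper reports a shorter latency of the leukemias without TET2, which goes with genotype and cannot be told apart from it here. The donor marrow carried floxed alleles and Mx1-Cre, which is driven by an interferon-responsive promoter and was switched on in both groups with poly(I:C) after transfer into irradiated adult female recipients. Leukemic marrow was taken when a mouse was moribund, at an age the labels do not give, and live donor-derived cells negative for CD3, B220 and Ter119 were sorted. Such a gate keeps every donor cell without these markers, NK cells and monocytes among them. In a bulk sample a change in methylation inside cells and a change in the mix of cells cannot be told apart.

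Chemokines are small secreted proteins that draw leukocytes along a gradient through G protein-coupled receptors. Ccl3 and Ccl4 (macrophage inflammatory proteins alpha and beta) are made by activated myeloid and lymphoid cells, Ccl5 (RANTES) chiefly by T and NK cells, and Ccl6 and Ccl9 by rodent myeloid cells. Their receptors include Ccr1 and Ccr3. Rpl9-ps1 is a retrocopy, a copy of a spliced messenger RNA set back into the genome, of the ribosomal protein gene Rpl9.

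The libraries held 63111735 to 110752967 calls, the mean depth was 2.96 to 5.19 calls per CpG dyad, and the genome-wide methylation level was 67.3% and 62.3% in the Tet2+/+ libraries and 70.9%, 74.8% and 68.4% in the Tet2-/- libraries. The promoters of the marker genes of other lineages were mostly methylated, with a median over 5 T cell genes of 71.1% in Tet2+/+ and 87.0% in Tet2-/- and over 5 B cell genes of 51.0% and 64.3%, while the median over 10 myeloid genes was 7.43% and 17.1%. Taken gene by gene, the median difference of those 10 myeloid genes was 3.03 points. The erythroid list (4 of 5 genes with 20 calls in every library) lay at 19.8% and 27.7%, the 5 monocyte and macrophage genes at 48.6% and 57.7%, the 3 NK cell genes at 52.9% and 68.2% and the 3 mast cell and basophil genes at 62.5% and 75.3%. All of these group medians were higher in Tet2-/-, and their part in the results below was not tested. The files hold methylation alone, so that no level of these chemokines was measured here.

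The genes of the cluster are poor in CpG, which limits how finely each can be read. The Rpl9-ps1 gene (ENSMUSG00000081906.2, chr11:83645046-83645621, minus strand, a single exon of 576 bases) holds 10 CpGs, against 17 in the 576 coding bases of Rpl9. Aligned to that coding sequence, 546 of 576 positions, gaps counted, were identical (94.79%), and 9 of the 10 CpGs were shared. The stretch with most CpGs is shown because it carries most of the calls behind the largest difference of the locus. The genomic sequence is chr11:83645200-83645496, read on the minus strand, and the stretch of Rpl9 aligned to it is joined from its coding exons on chromosome 5, with CpGs in capitals in both.
Rpl9-ps1: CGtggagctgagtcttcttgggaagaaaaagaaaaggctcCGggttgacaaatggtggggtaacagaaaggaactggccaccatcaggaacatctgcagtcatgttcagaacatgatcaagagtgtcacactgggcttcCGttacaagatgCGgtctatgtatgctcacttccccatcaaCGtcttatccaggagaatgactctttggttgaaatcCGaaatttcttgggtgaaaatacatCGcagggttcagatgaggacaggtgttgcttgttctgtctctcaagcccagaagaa
Rpl9: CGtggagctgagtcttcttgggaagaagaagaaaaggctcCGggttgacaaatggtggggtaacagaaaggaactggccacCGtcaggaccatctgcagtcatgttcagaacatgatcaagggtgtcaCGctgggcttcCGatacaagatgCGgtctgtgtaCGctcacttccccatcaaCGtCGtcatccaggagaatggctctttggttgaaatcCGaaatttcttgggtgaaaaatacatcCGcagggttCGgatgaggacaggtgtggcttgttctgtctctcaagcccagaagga
The Rpl9-ps1 stretch holds 7 CpGs and the Rpl9 stretch holds 12.

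The 250 bases before the start are shown for the 3 members in the RefSeq promoter table (GRCm38.p6), with CpGs in capitals, since the levels of these promoters rest on so few sites. Ccl9 and Ccl6 start in that table where GENCODE places them, and Ccl3 starts 23 bases further upstream. The stretches are chr11:83578637-83578886, chr11:83593088-83593337 and chr11:83649379-83649628, all read on the minus strand.
Ccl9: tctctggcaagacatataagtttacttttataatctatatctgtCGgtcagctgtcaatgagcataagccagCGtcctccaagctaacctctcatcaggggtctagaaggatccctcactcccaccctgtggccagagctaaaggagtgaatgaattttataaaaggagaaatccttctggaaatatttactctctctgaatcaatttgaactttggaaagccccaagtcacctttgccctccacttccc
Ccl6: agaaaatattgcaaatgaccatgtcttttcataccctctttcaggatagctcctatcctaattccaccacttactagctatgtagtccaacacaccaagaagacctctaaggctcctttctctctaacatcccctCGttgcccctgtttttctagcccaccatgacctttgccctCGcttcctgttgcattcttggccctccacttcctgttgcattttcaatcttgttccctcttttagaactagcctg
Ccl3: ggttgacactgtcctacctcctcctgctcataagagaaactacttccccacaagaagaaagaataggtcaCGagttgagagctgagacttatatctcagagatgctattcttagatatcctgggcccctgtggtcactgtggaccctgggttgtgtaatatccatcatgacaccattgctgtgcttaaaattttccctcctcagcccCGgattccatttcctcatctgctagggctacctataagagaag
Each holds 2 CpGs, whereas the median over 32851 promoters of the table was 6.0 and 29.0% held at most 2. The C/EBP motif TTGCNNAA, searched on both strands from 250 bases before to 50 bases after the start, was in none of the 3 windows and in 10.8% of all promoters. This says only that these letters are not in these windows.

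Rpl9-ps1 changed by the largest amount of the members. Over 1 kb on each side of its start (the promoter, in what follows), the methylation level, which is the share of methylated among all calls of a region, was 8.33% and 43.6% in Tet2+/+ replicates 23 and 24 and 77.3%, 96.8% and 89.7% in Tet2-/- replicates 5, 7 and 8. The 3 Tet2-/- libraries lay above both Tet2+/+ libraries, which differed from each other by far more than the Tet2-/- libraries did. Tet2+/+ averaged 26.0% ± 24.9 (SD, n = 2), which lay 62.0 percentage points under the 87.9% ± 9.88 (SD, n = 3) of Tet2-/-. With each library's genome-wide level subtracted it was 55.4 points, and with Tet2+/+ replicate 23 or 24 left out 44.3 or 79.6 points. It ranked 4 from the top among 19455 promoters with at least 20 calls in every library, over which the median difference was 2.22 points. The calls numbered 39 to 66 per library, and the 95% Wilson intervals were 3.29 to 19.6% and 29.3 to 59.0% in Tet2+/+ and 65.8 to 85.7%, 89.0 to 99.1% and 76.4 to 95.9% in Tet2-/-. Intervals here cover counting error only.

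**Figure D1:**
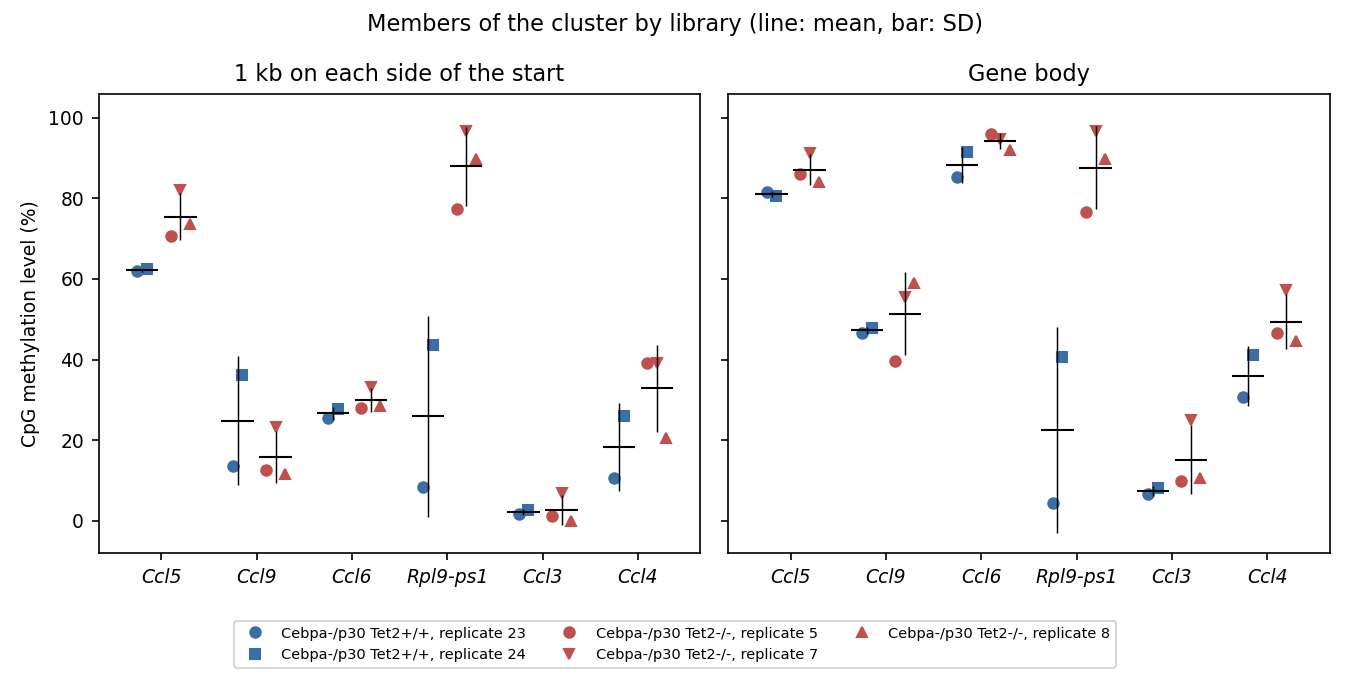
Methylation level in percent of each member in every library, over 1 kb on each side of the start (left) and over the gene body (right), with Tet2+/+ libraries in blue, Tet2-/- libraries in red, a line at the group mean and a bar of 1 SD. Rpl9-ps1 lies at 8.33% and 43.6% in Tet2+/+ and at 77.3% to 96.8% in Tet2-/- on the left, while Ccl3 stays under 7% in every library there.

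The difference lay in the retrocopy itself. Of the 11 CpGs within 1 kb of its start, 10 are in the gene, and the 1 kb upstream of the start holds 0 CpGs. Within the gene the level was 4.44% (2 of 45 calls) and 40.5% (15 of 37 calls) in Tet2+/+ and 76.6% (49 of 64), 96.6% (57 of 59) and 89.7% (35 of 39) in Tet2-/-. In the 1 kb that follows the gene, 4 CpGs with at least 6 calls per library had 93.3% and 100% in Tet2+/+ and 100%, 88.9% and 83.3% in Tet2-/-. In the 2 kb upstream, 7 CpGs lay at 91.4% and 81.6% in Tet2+/+ and 89.7%, 94.6% and 96.7% in Tet2-/-. The sequence on both sides was therefore highly methylated in all 5 libraries, and in the Tet2+/+ libraries the gene was a low stretch between high ones.

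Single CpGs of the gene differed in the same direction. The promoter value by which Rpl9-ps1 was chosen rests on these same CpGs, and close neighbours can share a read. Their agreement is therefore a description and adds no support. All 10 had a higher level in Tet2-/- than in Tet2+/+ with the calls of each group added, and the 8 with at least 5 calls in each group differed by 40 to 78.0 points. In Tet2+/+ replicate 23, 8 of the 10 CpGs had no methylated call. In Tet2+/+ replicate 24, 8 of 9 covered CpGs had at least 1 methylated call, so that the intermediate level of that library was spread along the gene. On the plus strand the gene had 0 of 18 methylated calls in replicate 23, which allows a level of up to 16.7% (3 calls of the total, the limit used here for a count of 0), and 18.8% in replicate 24, against 84.6%, 95.2% and 88.9% in Tet2-/-. On the minus strand the levels were 7.41% and 57.1% against 71.1%, 97.4% and 90.5%.

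**Figure D2:**
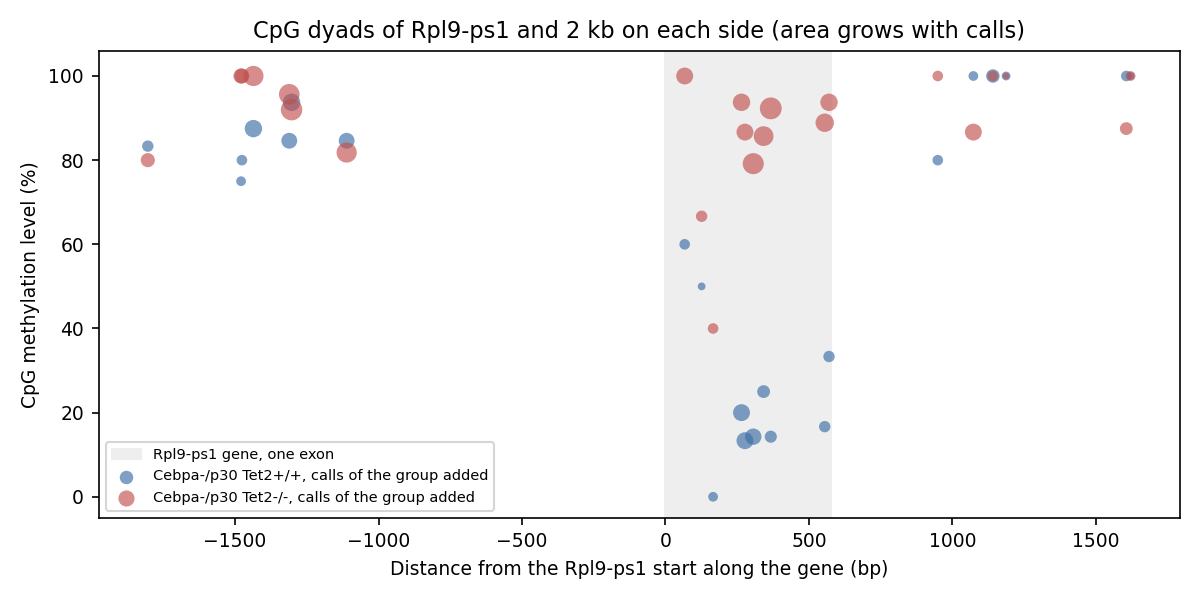
Methylation level in percent of each CpG of Rpl9-ps1 (shaded) and of the 2 kb on each side, against distance from its start in bp along the gene, with the calls of each group added and the area of a point growing with them. Within the gene the points of Tet2+/+ lie at 0% to 60% and those of Tet2-/- at 40% to 100%, whereas outside it both groups lie at 75% or above.

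Reads of a retrocopy can belong to a relative elsewhere in the genome. A blastn search found 37 other places that match over 90% of the gene or more, the closest at 94.6% identity and the median at 85.7%. Of the 502 stretches of 75 bases (the read length) in the gene, 6 had an exact match elsewhere as genomic sequence. After conversion of C to T, as in reads of the gene strand, 29 of 502 had one, and after conversion of G to A, as in reads of the opposite strand, 172 of 502 did. With up to 1 mismatch allowed, the counts were 77 as genomic sequence, 171 after C to T and 312 after G to A. A read with equally good matches is not placed uniquely. The coverage of the gene was 105%, 89.3%, 105%, 99.3% and 109% of that of the 200 kb in replicates 23, 24, 5, 7 and 8, and the part of misplaced reads in the levels was not tested.

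The numbered copies of Rpl9 covered a wide range. Rpl9 itself, the source gene on chromosome 5, had 13.8% and 8.96% over its body in Tet2+/+ and 11.7%, 17.8% and 7.88% in Tet2-/-, and the groups overlapped. Of the numbered copies, Rpl9-ps6 came nearest to Rpl9-ps1, with 25.0% and 24% in Tet2+/+ and 76.5%, 100% and 61.1% in Tet2-/-, on as few as 12 calls in a library. Rpl9-ps2 had 62.4% and 40.4% against 79.6%, 85.2% and 74.2%, a difference of 28.3 points. Rpl9-ps3 stayed under 4% in 4 libraries (3.33%, 3.03%, 2.06% and 1.47%) and stood at 24.7% in Tet2-/- replicate 7. Rpl9-ps5 and Rpl9-ps8 differed by 11.6 and 9.73 points, Rpl9-ps7 and Rpl9-ps9 by 1.37 and 0.40 points, and Rpl9-ps4 by -4.73 points on as few as 3 calls. Of Rpl9-ps2 to Rpl9-ps9, those whose groups did not overlap were Rpl9-ps2, Rpl9-ps6 and Rpl9-ps8, higher in Tet2-/-. Among annotated processed pseudogenes with at least 20 calls in every library, 29.7% had all Tet2-/- libraries above. That share does not cover Rpl9-ps6, which is annotated as protein-coding and had under 20 calls in a library. Rpl9-ps4, Rpl9-ps7 and Rpl9-ps9 were also under 20 calls in a library and lie outside it.

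**Figure D3:**
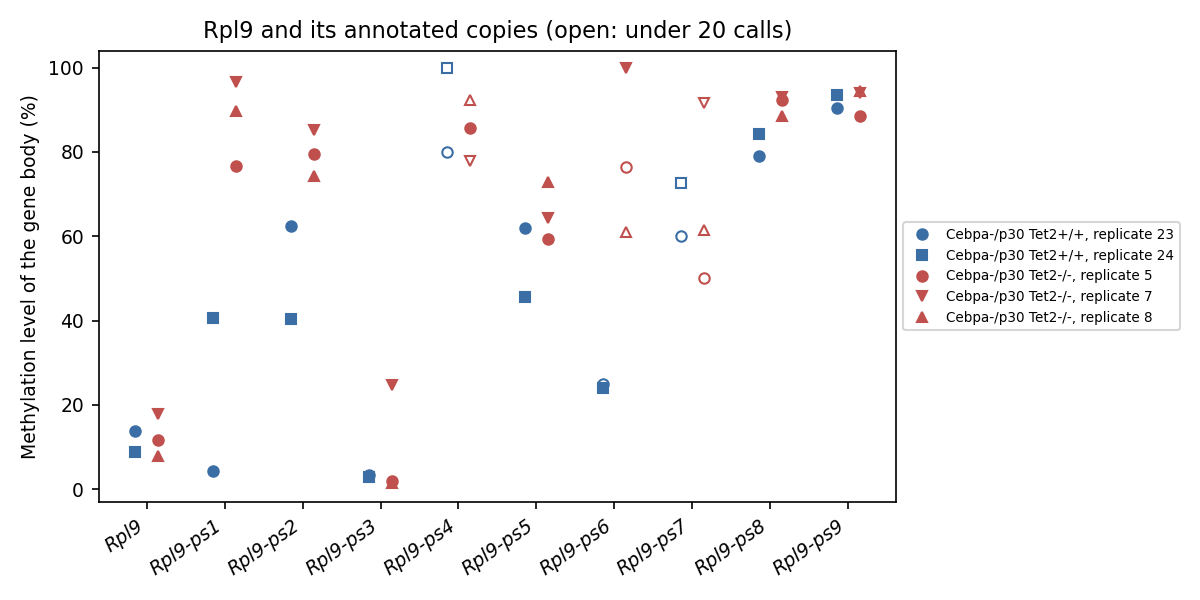
Methylation level in percent of the gene body of Rpl9 and its 9 numbered copies in every library, with Tet2+/+ in blue and Tet2-/- in red and open symbols where a library had under 20 calls. Rpl9-ps1 and Rpl9-ps6 lie at 4.44% to 40.5% in Tet2+/+ and at 61.1% to 100% in Tet2-/-, while Rpl9, Rpl9-ps3 and Rpl9-ps9 overlap between the groups.

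Among the 37 matches found by sequence, a list made after the values of Rpl9-ps1 were known, 24 had at least 20 calls in every library. Their differences ran from 4.05 to 64.5 points with a median of 14.0, and in 15 of them all Tet2-/- libraries were above both Tet2+/+ libraries, against the same 29.7% of annotated processed pseudogenes. The highest was Gm8087, at a mean of 23.3% in Tet2+/+ and 87.8% in Tet2-/-. Over all 4862 annotated processed pseudogenes with that coverage the median difference was 5.01 points (5th to 95th percentile, -5.11 to 25.3), 21 differed by over 50 points and 3 by as much as the Rpl9-ps1 gene. The median level of these 4862 was 78.3% in Tet2+/+. The 24 were not matched to them in methylation level or CpG content, and the part of either in this contrast was not tested.

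The Ccl3 promoter had the lowest level of the members in both groups. It had 1.63% and 2.70% in Tet2+/+ and 1.24%, 6.91% and 0% in Tet2-/-, where the last library had 0 of 94 methylated calls, which allows a level of up to 3.19%. The groups overlapped, at means of 2.16% ± 0.76 (SD, n = 2) and 2.72% ± 3.69 (SD, n = 3). With the genome-wide level subtracted the difference turned from 0.55 to -5.97 points. At levels so near 0% this subtraction mostly returns the genome-wide difference. The promoter difference was -1.54 points without Tet2-/- replicate 7 and 1.91 without replicate 8. It was -0.49 as a mean of single-CpG levels and 5.21 with 2000 bp on each side. Of its 22 CpGs, 16 had no methylated call in any library. The body of Ccl3, whose start lies 3734 bp from that of Rpl9-ps1, had 6.59% and 8.24% against 10.0%, 25.0% and 10.5%. The Tet2-/- libraries were above there, by 7.76 points on average, with replicate 7 standing over replicates 5 and 8.

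Ccl4, the neighbour of Ccl3 on the opposite strand, had 10.6% and 26.1% over its promoter in Tet2+/+ and 39.2%, 39.1% and 20.5% in Tet2-/-. The groups overlapped, since replicate 8 lay under Tet2+/+ replicate 24, and the means differed by 14.5 points, or by 6.82 without Tet2+/+ replicate 23, 22.3 without replicate 24 and 5.36 with 500 bp on each side. Over its body the levels were 30.6% and 41.2% against 46.6%, 57.1% and 44.6%, with no overlap and a difference of 13.5 points.

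Ccl5 had the most methylated promoter of the members in Tet2+/+. The levels were 61.9% and 62.4% in Tet2+/+ and 70.7%, 82.0% and 73.6% in Tet2-/-, all 3 above, with a difference of 13.3 points, or 6.77 with the genome-wide level subtracted and 8.61 with 2000 bp on each side. Its body, at 81.5% and 80.5% against 86.0%, 91.3% and 84.0%, differed by 6.10 points, near the median over 20715 gene bodies of 4.95 points.

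The Ccl6 promoter differed by a few points and the Ccl9 promoter had a lower mean in Tet2-/-. The Ccl6 promoter had 25.6% and 27.8% in Tet2+/+ and 28.0%, 33.3% and 28.6% in Tet2-/-, which do not overlap but differ by 3.29 points on average, and by -3.24 points once each library's genome-wide level was subtracted. That difference depended on the bases and strand read, at 18.3 points with 500 bp on each side of the start, 6.42 with 2000 bp, 12.7 on the plus strand and -1.36 on the minus strand. Its body was at 85.2% and 91.5% against 95.8%, 94.6% and 91.9%. The Ccl9 promoter had 13.6% and 36.2% in Tet2+/+ and 12.6%, 23.4% and 11.6% in Tet2-/-, and the groups overlapped because the Tet2+/+ libraries differed widely. Tet2+/+ averaged 24.9% ± 16.0 (SD, n = 2) there against 15.9% ± 6.52 (SD, n = 3), and Ccl9 was the only member promoter with a lower mean in Tet2-/- (-9.02 points). Without Tet2+/+ replicate 24 the difference was 2.29 points and without replicate 23 it was -20.3 points. Its body overlapped too, at 46.7% and 47.8% against 39.8%, 55.5% and 59.0%.

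In order of the Tet2+/+ mean, the promoters ran from Ccl5 (62.1%) through Ccl6 (26.7%), Rpl9-ps1 (26.0%), Ccl9 (24.9%) and Ccl4 (18.4%) to Ccl3 (2.16%). The 4 in the middle differed from each other by less than the SD of Ccl4, Ccl9 or Rpl9-ps1. In Tet2-/- the order was Rpl9-ps1 (87.9%), Ccl5 (75.4%), Ccl4 (32.9%), Ccl6 (30%), Ccl9 (15.9%) and Ccl3 (2.72%), and Ccl4 and Ccl6 lay within the spread of Ccl4. Tet2+/+ replicate 24 was the higher of its group at every member promoter, by 22.6 points at Ccl9 and 35.3 at Rpl9-ps1, although its genome-wide level was the lower one.

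Of the 6 member promoters, 1 (Rpl9-ps1) passed the edgeR quasi-likelihood test at an adjusted p of 0.05 and none of the others did, where 1.07% of all 19455 promoters passed (206 higher and 3 lower in Tet2-/-). With library medians subtracted in limma, 40 promoters passed, of which 34 were higher, and 0 of the members (1 at an unadjusted p under 0.05). By edgeR 0 members passed without Tet2+/+ replicate 23, Tet2+/+ replicate 24, Tet2-/- replicate 7 or Tet2-/- replicate 8 (1, 2, 1 and 2 at an unadjusted p under 0.05) or with 500 bp on each side of the start (1), and at a minimum of 50 calls Rpl9-ps1 was not tested. Of the 6, 3 (Ccl5, Ccl6 and Rpl9-ps1) had all Tet2-/- libraries above both Tet2+/+ libraries, against 32.8% of promoters, and 0 had all below, against 4.05%. Since this comparison chose the members, nothing is read from these counts.

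Over the 200 kb as a whole the difference was near the median of the genome. The level was 64.1% and 64.4% in Tet2+/+ and 69.0%, 74.6% and 68.7% in Tet2-/-, with means of 64.2% ± 0.21 (SD, n = 2) and 70.8% ± 3.30 (SD, n = 3). The difference of 6.56 points was above that of 55.0% of 12632 windows of the same length, whose median was 6.25 points (5th to 95th percentile, 2.03 to 10.9). Without the Rpl9-ps1 gene it was 6.15 points, and with each library's genome-wide level subtracted it was 0.035 points. The depth of the locus relative to chromosome 11 was 107%, 108%, 108%, 103% and 110% in replicates 23, 24, 5, 7 and 8, and the groups did not differ in an exact permutation test (two-sided, p = 1, where 10 splits allow 0.1 at the smallest). The test cannot pass a threshold of 0.05 in this design, and the values themselves are the measurement.

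The difference varied along the locus. Of its 200 windows of 1 kb, 111 had at least 20 calls in every library, 88 of them with a higher mean in Tet2-/- and 23 with a lower one, and the median difference was 4.91 points. All Tet2-/- libraries were above in 34 of the 111 and below in 1, against 32.9% and 2.06% of 1047054 such windows of the genome. Windows with a gain over 20 points numbered 6, and 0 had a loss over 20 points. The share of such windows in the genome was not counted, so nothing is read from the 6. For 2 kb windows of the genome, the 95th percentile of the difference was 26.2 points at mean levels of 20 to 50%. It was 25.0 points at 50 to 80%, 10.8 under 20% and 14.6 at 80% or more.

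**Figure D4:**
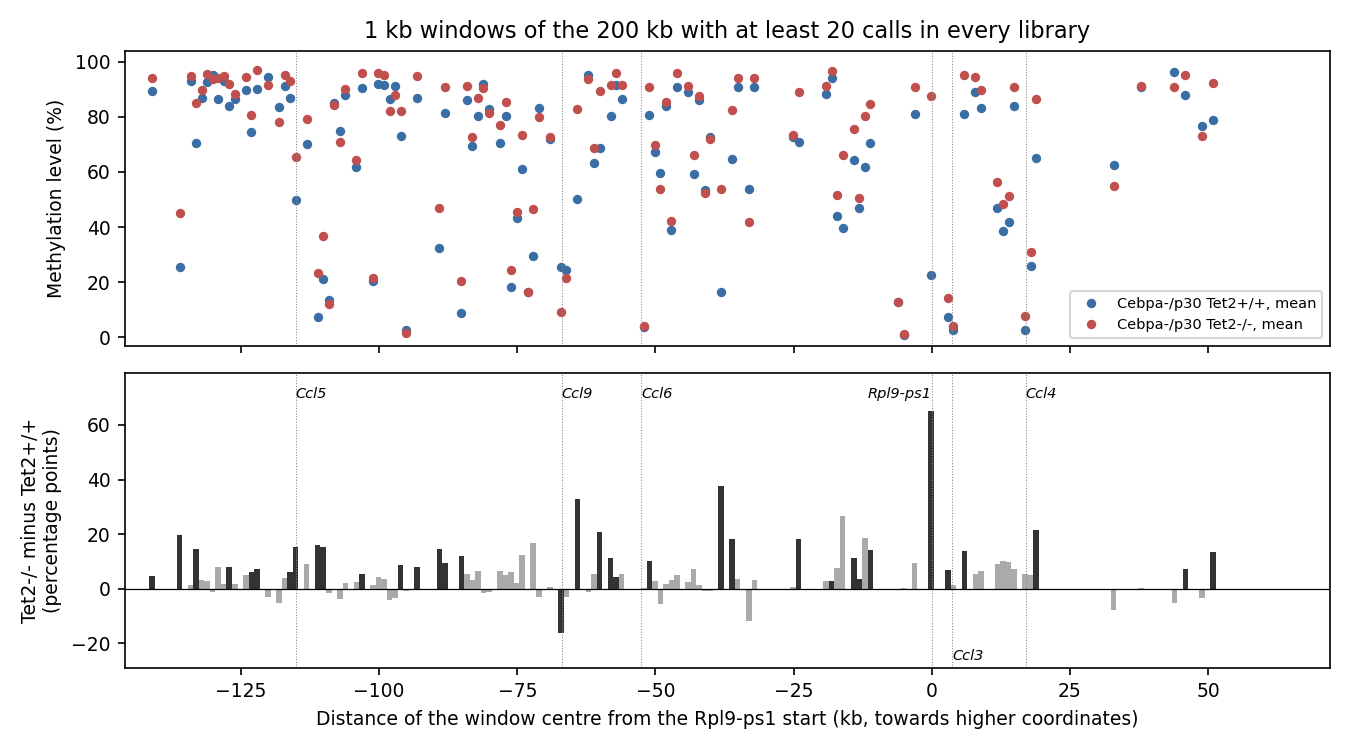
Mean methylation level in percent of the Tet2+/+ (blue) and Tet2-/- (red) libraries in 1 kb windows (top) and their difference in percentage points (bottom; dark bars where the groups do not overlap), against distance in kb from the Rpl9-ps1 start, with dotted lines at the members' starts. The window of Rpl9-ps1 stands at 65.1 points, next to 37.4 points for the second largest gain, and the largest loss is at the start of Ccl9.

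The window of Rpl9-ps1 had the largest gain (65.1 points). The second, chr11:83607001-83608000, lies in an intron of E230016K23Rik, a noncoding gene of the plus strand (chr11:83582056-83623693) that spans Ccl6 on the opposite strand. It had 13.2% and 19.4% in Tet2+/+ and 40.5%, 79.7% and 41.2% in Tet2-/-, with no overlap and a difference of 37.4 points. The 300 bases of this window with most CpGs (capitals) are shown as the largest gain of the locus outside a retrocopy, chr11:83607301-83607600 on the plus strand.
E230016K23Rik intron: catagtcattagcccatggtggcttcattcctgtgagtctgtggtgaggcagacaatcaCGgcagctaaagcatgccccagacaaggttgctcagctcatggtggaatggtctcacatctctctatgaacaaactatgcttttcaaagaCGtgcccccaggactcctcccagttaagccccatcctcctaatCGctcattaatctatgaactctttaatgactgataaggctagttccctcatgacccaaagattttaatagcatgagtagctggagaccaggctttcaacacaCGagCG
The stretch holds 5 CpGs.

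The third, chr11:83581001-83582000, ends just before the start of E230016K23Rik and had 39.6% and 60.5% against 84.3%, 85.2% and 78.9%. Over 1 kb on each side of that start the level was 52.9% and 61.4% against 88.6%, 87.0% and 80%, a difference of 28.1 points. The fourth, chr11:83629001-83630000, is intergenic and its groups overlapped (55.6% and 23.8% against 52.1%, 78.3% and 68.2%). The fifth, chr11:83664001-83665000, covers the last exon of Ccl4 and had 63.6% and 66.7% against 79.7%, 91.8% and 88.2%.

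The largest loss was in chr11:83578001-83579000, which contains the start of Ccl9. It had 16.7% and 34.5% in Tet2+/+ and 8.57%, 8.33% and 11.1% in Tet2-/-, the window in which every Tet2-/- library was lower, by 16.2 points on average. These levels rest on few methylated calls, 6 of 36 and 10 of 29 in Tet2+/+ replicates 23 and 24. In Tet2-/- replicates 5, 7 and 8 they were 3 of 35, 3 of 36 and 3 of 27. The Tet2+/+ libraries differed from each other by more than the Tet2-/- libraries did, with replicate 24 the higher. The next losses were chr11:83612001-83613000 and chr11:83596001-83597000 in introns of E230016K23Rik (-12.0 and -5.66 points), chr11:83678001-83679000 in the pseudogene Gm11433 (-7.68 points) and the intergenic chr11:83689001-83690000 (-5.32 points). In these 4 the groups overlapped.

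The remaining genes of the stretch moved little, with Gm11433 as the exception. Around the start of this unprocessed pseudogene the level was 69.0% and 69.7% in Tet2+/+ and 57.4%, 51.0% and 56.4% in Tet2-/-, lower in all 3 by 14.4 points on average. Taf15, an RNA-binding protein gene whose start lies outside the 200 kb, was unmethylated, at 1.59% to 3.37%. Heatr9 differed by 5.11 points, the small nuclear RNA Gm23247 by 1.96, and the pseudogenes Gm11438, Gm11432 and Gm11430 by -1.66, 3.07 and -0.74 points, at levels of 75.0% or above in Tet2-/- throughout.

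In windows of 2 kb, where the same test was run across the genome, 90 windows of the locus had enough calls and 1 passed at an adjusted p of 0.05 by edgeR, against 2.7% of 900641 windows (24216 higher and 132 lower in Tet2-/-, and 990 and 200 by limma with library medians subtracted). It is chr11:83644001-83646000, which contains Rpl9-ps1, with a difference of 47.6 points. It holds the values by which Rpl9-ps1 was chosen, so that nothing is read from this call. Without Tet2+/+ replicate 23 0 windows of the locus passed by edgeR (8 at an unadjusted p under 0.05), and without Tet2-/- replicate 5 or 8, 2 or 3 did. All Tet2-/- libraries were above in 30 of the 90 windows, against 33.5% genome-wide, and below in 0, against 1.77%. Sorted by the mean level over all 5 libraries, the 6 windows under 20% had a median difference of 3.32 points (genome, 1.33), the 9 from 20 to 50% of 10.6 (8.03), the 29 from 50 to 80% of 6.55 (8.23) and the 46 at 80% or more of 5.0 (4.20).

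The receptors Ccr1 and Ccr3 were read at their starts in the same way. Ccr1, the common receptor of Ccl3, Ccl5, Ccl6 and Ccl9, had 0% (0 of 22 calls, which allows up to 13.6%) and 39.1% in Tet2+/+ and 11.4%, 6.90% and 9.52% in Tet2-/-. It did not pass (edgeR quasi-likelihood test with Benjamini-Hochberg adjustment, adjusted p = 0.62), and the groups overlapped. Ccr3, with as few as 12 calls, was not tested and lay at 82.8% to 92.9% in all libraries.

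The chemokine system outside the locus, 32 further ligands and 24 receptors with Ccr1 and Ccr3 among them, was read with the same test. Of these, 53 had enough calls, and 2 ligands and 0 receptors passed by edgeR, both ligands higher in Tet2-/-. The share of 3.77% is set beside 1.07% of all promoters. At an unadjusted p under 0.05 there were 11 ligands and 4 receptors, where 18.1% of all promoters passed. The likelihood ratio test of edgeR called 6 genes, 1 of them a receptor (Ccr1l1), and 5.5% of all promoters. Cxcl9, an interferon-induced ligand of Cxcr3, had 6.56% and 2.63% in Tet2+/+ and 22.0%, 31.5% and 33.1% in Tet2-/-, a difference of 24.2 points (adjusted p = 0.0248, edgeR). Cxcl10, its neighbour on chromosome 5 with the same receptor, had 20.3% and 18.7% against 49.6%, 44.2% and 43.6%, a difference of 26.3 points (adjusted p = 0.0453, edgeR). Both were higher in 3 of 3 libraries, and both calls were lost without Tet2+/+ replicate 23 (adjusted p = 0.0766 and 0.132, edgeR), without Tet2+/+ replicate 24 (0.426 and 0.469) and without Tet2-/- replicate 8 (0.0646 and 0.0867). The Cxcl10 call was also lost without Tet2-/- replicate 5 (adjusted p = 0.0835, edgeR) and replicate 7 (0.0852), so that leaving out any 1 library ended it, and with 500 bp on each side (0.415), by limma (0.0545) and by limma with library medians subtracted (0.245). Over all alternatives the adjusted p ran from 0.000111 to 0.426 for Cxcl9 and from 0.00879 to 0.469 for Cxcl10.

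The 30 ligands tested had a median difference of 11.4 points and the 23 receptors one of 5.55 points, beside 2.22 over all promoters. A higher mean in Tet2-/- was seen in 27 of the ligands and 18 of the receptors. All Tet2-/- libraries were above both Tet2+/+ libraries in 25 of the 53 (47.2%, against 32.8% of all promoters) and below in 1, Pf4. The list was not matched to all promoters in CpG content or methylation level. The median promoter held 70 CpG dyads, and most of the list held fewer. Genome-wide, 2 kb windows at mean levels of 20 to 50% and 50 to 80% had median differences of 8.03 and 8.23 points. The part of CpG content and level in these contrasts was not tested.

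**Figure D5:**
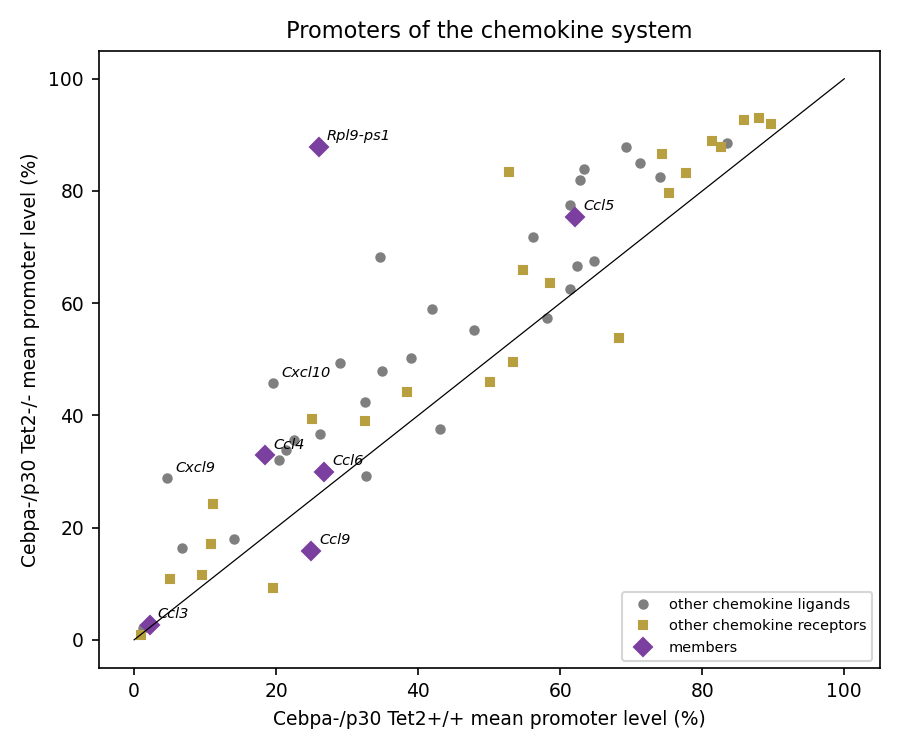
Mean promoter methylation level in percent of Tet2-/- (vertical) against Tet2+/+ (horizontal) for the 6 members and the 53 other chemokine ligands and receptors with enough calls, with the line of equal levels. Rpl9-ps1 lies farthest above the line, Cxcl9 and Cxcl10 are those of the 53 that passed the test, and Ccl9 lies below the line.

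The promoters most like that of Rpl9-ps1 over the 5 libraries were sought only outside the 200 kb, so that their location is not a result. By root mean square difference of levels the nearest was Nr1h4 (6.27 points; 20.2% and 40% against 77.4%, 90.4% and 91.3%), the gene of a bile acid receptor, followed by 4922502D21Rik (12.7), Eid3 (13.7) and P2ry6 (13.8). Nr1h4 also had its higher Tet2+/+ value in replicate 24, which the choice by these same levels favours, so nothing is read from it. In replicates 23 and 24, P2ry6 had 23.9% and 29.2%, 4922502D21Rik 23.1% and 21.8% and Eid3 26.3% and 20.7%.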

How the data were processed

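DNA of sorted AML blasts was bisulfite converted, and random-primed libraries were read in 75 cycles. Per the labels and the methods, the authors trimmed reads with Trim Galore 0.4.3, aligned them to GRCm38 (mm10) with Bismark 0.19.1 and Bowtie 2 in non-directional mode and removed duplicates. What was deposited is, for each cytosine of a CpG, the raw count of methylated and of unmethylated calls. All 1478 positions of the locus matched CpGs of GRCm38.p6.

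Counts of both strands were added per dyad, and levels were pooled over the dyads of a region. A region entered the test when no library had fewer than 20 calls. It was run in edgeR 4.0.16 (R 4.3.3; glmQLFit, glmQLFTest, trended dispersion) on methylated and unmethylated counts with a coefficient per library, adjusted by Benjamini-Hochberg over all regions of a kind at 0.05. Alternatives used the likelihood ratio test and limma 3.58.1 on log2((methylated + 2)/(unmethylated + 2)). Group values are means of library levels, with groups taken from the titles. The labels call the libraries biological replicates and name no batch.

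Genes named are the members, all genes of the 200 kb, Ccr1, Ccr3, Rpl9 and its numbered copies, the 5 largest gains and losses among 1 kb windows, other chemokine genes that passed, and promoters nearest to Rpl9-ps1 (results of the naming rule that are withheld are not reported here); Gm8087 and Pf4 were named after their values were seen. Of the chemokine list, Cxcl11 was not among the protein-coding genes, Ccl19 had 0 calls and Ccr3 had under 20. Ccl4 and Ccl5 have no entry in the promoter table used. The members and lists were chosen with earlier results of these data known.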

Additional observations from a re-analysis of the deposited data

How the results depend on the processing

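No paired analysis was possible because the groups share no replicate numbers. The count of 209 promoters that passed was 1070 by the likelihood ratio test of edgeR, 40 by limma with library medians subtracted and 105 with 500 bp on each side of the start, and ran from 0 to 293 as single libraries were left out. It was 0 without Tet2+/+ replicate 24 (1600 at an unadjusted p under 0.05), 21 without replicate 23, 105 without Tet2-/- replicate 7 and 83 without replicate 8. The 2 chemokine ligands became 6 genes by the likelihood ratio test and 1 gene by limma, with and without medians subtracted, and at 500 bp, and ran from 0 to 2 as libraries were left out, where the 2 without Tet2-/- replicate 5 were Cxcl9 and the receptor Ccr1l1. The count of 0 held without Tet2+/+ replicate 23, Tet2+/+ replicate 24 or Tet2-/- replicate 8 (13, 8 and 17 at an unadjusted p under 0.05, edgeR), and 1 remained without Tet2-/- replicate 7. The 24348 windows of 2 kb became 12132 by limma, 1190 with medians subtracted and 1063 to 28972 as libraries were left out, with 1063 without Tet2+/+ replicate 24, 10565 without replicate 23, 15989 without Tet2-/- replicate 5 and 14547 without replicate 7. The causes were not tested.

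The difference over the 200 kb was 0.035 points with each library's genome-wide level subtracted and 4.66 to 7.58 points as libraries were left out. The median difference of the 6 member promoters, 8.29 points, was 1.77 with the genome-wide level subtracted, 14.4 on the plus strand, 4.85 on the minus strand and 4.5 to 9.10 as libraries were left out, with 4.5 without Tet2+/+ replicate 23. The Rpl9-ps1 promoter stayed positive in all 12 alternatives, at 31.6 points with 2000 bp on each side, where highly methylated sequence is added, to 80.2 on the plus strand. Each alternative reuses calls by which this gene was chosen, so nothing is read from the sign. The coverage difference of -0.74 points relative to chromosome 11 was -2.52 to 1.43 as libraries were left out, with 1.43 without Tet2-/- replicate 7. Depth limits the members: at 35 to 188 calls per promoter and library the 95% Wilson intervals were 3.93 to 29.7 points wide.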
